A study of Arabidopsis thaliana with 8 samples.

Results

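AT5G53680, AT1G44414, AT3G07150 and AT1G72660 are grouped here as genes with very strong heat rises outside the classical chaperones. They were chosen by name from their measured values. AT5G53680, AT1G44414 and AT3G07150 were among the 8 highest rises in heat against control, and AT1G72660 among the 8 highest in heat then anoxia against control, counted over 7823 named probe sets. They are 4 of the 7715 named genes measured, and each was read by 1 probe set of an Affymetrix ATH1 array, namely 248215_at, 245243_at, 258827_at and 259913_at. The lowest heat rise among them was 9.37 on the log2 scale (AT1G72660), and the next named probe set outside the group, AT4G23493, stood at 9.33. Over all 14535 probe sets tested, named or not, the heat rises of AT5G53680, AT1G44414, AT3G07150 and AT1G72660 ranked 21, 22, 25 and 29. Because the choice used the rises in heat and in heat then anoxia against control, these are given as descriptions without a test.

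RNA came from whole *Arabidopsis thaliana* seedlings of ecotype Columbia 0, germinated in air and grown in darkness for 4 days at 23 °C in half-strength Murashige and Skoog liquid with 30 mM sucrose. Controls received no treatment. Heat seedlings spent 90 minutes at 38 °C, anoxia seedlings spent 6 hours without oxygen at 23 °C, and the combined group had the 90 minutes of heat first and the 6 hours of anoxia afterwards, all in darkness. Each of the 4 groups had 2 biological replicates, with 1 array each; p-values and errors rest on that small number.

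The heat shock response is driven by heat shock transcription factors, which bind heat shock elements in promoters and raise transcripts of chaperones within minutes. Besides chaperones, it raises genes for RNA-binding proteins, GTPases and small proteins of little-known function. In Arabidopsis, oxygen deprivation is also known to raise heat shock protein transcripts, next to the genes of fermentation and the core hypoxia response. AT5G53680 encodes a protein with an RNA recognition motif, a fold that binds single-stranded RNA. AT1G72660 encodes a GTP-binding protein of the DRG family (developmentally regulated G proteins), whose relatives in yeast and mammals associate with translating ribosomes. The name tables used here give no description for AT1G44414 or AT3G07150, so their place outside the chaperones was not checked.

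Median intensity ran from 36.8 to 53.2 per array, and 58.1% to 60.6% of probe sets reached a log2 intensity of 4, the level taken here as the edge of background. A control probe set for 25S ribosomal RNA stood at 12.19 in anoxia replicate 2 and at 11.46 in heat then anoxia replicate 2, against 2.79 to 6.58 in the other 6 arrays. Results for the 4 genes are therefore also given without those arrays. Of the seedling markers, PORB (protochlorophyllide reductase of dark-grown shoots) lay at 11.85 to 13.95 in all arrays, and was lower in heat then anoxia, at a difference of -1.90 from control (limma adjusted p = 0.000453) and of -1.35 from heat (limma adjusted p = 0.0135). The root hair expansins EXPA7 and EXPA18 lay at 4.09 to 6.78 in controls and at 1.89 to 3.43 in all treated arrays, and the part of either change in the results was not tested. In whole seedlings, fewer cells of a type and less RNA per cell cannot be told apart.

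AT5G53680, the RNA-binding protein gene, had log2 intensities of 2.10 and 2.23 in the control arrays and of 12.04 and 12.00 in the heat arrays. In anoxia it read 7.51 and 7.70, and in heat then anoxia 12.53 and 12.93. The 4 groups were ordered control, anoxia, heat, heat then anoxia, and no arrays of different groups overlapped. The share of all probe sets with the 4 groups apart was not counted. Taken pair by pair, heat arrays lay above controls in 25.4% of all probe sets and anoxia arrays in 24.4%. Anoxia arrays lay below heat arrays in 22.8%. Heat then anoxia arrays lay above controls in 29.0% and above anoxia arrays in 25.5%. In 27.8% of all probe sets both heat then anoxia arrays lay above both heat arrays. The heat rise of AT5G53680 was 9.85 ± 0.24 (SE), and its combined rise was 10.56.

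AT1G44414 stood at 2.70 and 2.32 in controls, at 12.28 and 12.34 in heat, at 5.70 and 6.76 in anoxia, and at 12.04 and 12.00 in heat then anoxia. Its arrays likewise did not overlap between groups, a pattern whose share over all probe sets was not counted. Here the heat arrays were the highest, above heat then anoxia as in 33.7% of all probe sets. The gap between its anoxia arrays was the widest between replicates of any group of the 4 genes. The heat rise was 9.80 ± 0.35 (SE), and the combined rise was 9.51.

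AT3G07150 had the lowest control readings of the 4 probe sets, 1.81 and 1.85. It read 11.67 and 11.47 in heat, 5.81 and 6.39 in anoxia, and 11.69 and 11.34 in heat then anoxia. Heat and heat then anoxia overlapped for this gene, and both lay far above anoxia. It rose by 9.74 ± 0.27 (SE) in heat and by 9.69 in the combined treatment.

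AT1G72660, the GTPase gene, read 3.25 and 3.60 in controls, 12.86 and 12.73 in heat, 6.96 and 7.77 in anoxia, and 13.07 and 13.08 in heat then anoxia. As for AT5G53680, the combined arrays lay above the heat arrays, as in 27.8% of all probe sets. The heat rise was 9.37 ± 0.30 (SE), and the combined rise was 9.65.

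**Figure D1:**
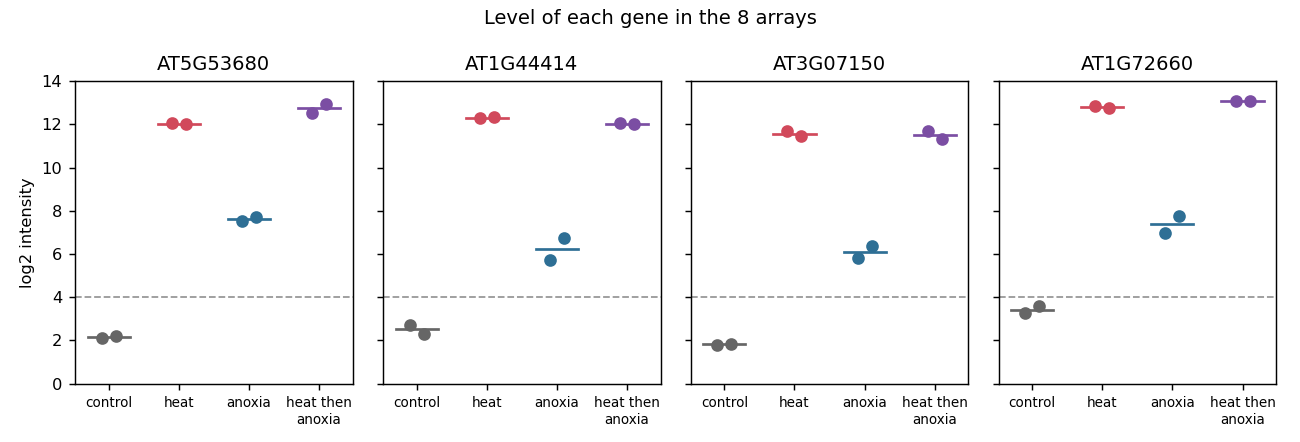
Log2 intensity of the 4 genes (1 panel each) in the control, heat, anoxia and heat then anoxia groups. Points are the 2 arrays of a group, short lines are group means, and the dashed line marks log2 4; all control points lie below the line, the anoxia points lie between 5.70 and 7.77, and the points of both heated groups lie at 11.34 or higher.

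All 8 control readings of the 4 genes were below log2 4, so the size of a rise against control depends on how the background was modelled. With every value below 4 raised to 4, the heat rises were 260-fold for AT5G53680, 317-fold for AT1G44414, 190-fold for AT3G07150 and 444-fold for AT1G72660. The anoxia rises against the same floor were 12.2-fold, 4.69-fold, 4.29-fold and 10.3-fold in that order. These values hold for that floor and are not lower bounds. With 16 added to every intensity instead, the log2 anoxia rise of AT5G53680 was 3.36, against 3.61 with the floor. That of AT1G44414 was 2.08 against 2.23, and that of AT1G72660 was 2.76 against 3.37. AT3G07150 stood at 2.12 against 2.10.

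The comparison of anoxia with control asked whether the 4 genes also rose without oxygen at 23 °C. They did, and by much less than in heat. AT5G53680 rose by 5.44 ± 0.24 (SE, n = 2 per group; limma adjusted p = 2.27e-05), AT3G07150 by 4.27 ± 0.27 (limma adjusted p = 0.000118), AT1G72660 by 3.94 ± 0.30 (limma adjusted p = 0.000255) and AT1G44414 by 3.72 ± 0.35 (limma adjusted p = 0.000594). Thus 4 of 4 were called higher (adjusted p below 0.05 and a change of 2-fold or more), where 3.95% of the 14535 probe sets tested were. The anoxia arrays of all 4 lay above their controls, as those of 24.4% of probe sets did. The control arrays of this test also served in choosing the genes.

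The genes are not ranked against one another by these rises, because the order rests on control readings below log2 4. With values below 4 raised to 4, the anoxia rises ran from 2.10 (AT3G07150) to 3.61 (AT5G53680) and the heat rises from 7.57 (AT3G07150) to 8.80 (AT1G72660).

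**Figure D2:**
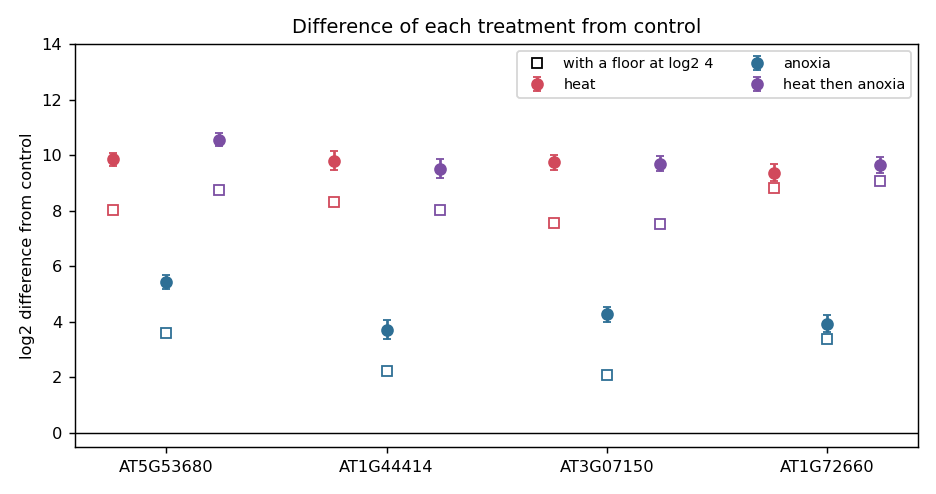
Log2 difference of heat, anoxia and heat then anoxia from control for the 4 genes. Filled circles with bars are fitted differences with their standard errors, and open squares are the differences when values below log2 4 are raised to 4; the anoxia rises, 3.72 to 5.44 as deposited, lie below the heat rises, 9.37 to 9.85, for every gene.

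Anoxia replicate 2 read higher than replicate 1 for all 4 genes, by 0.20 for AT5G53680, 0.58 for AT3G07150, 0.81 for AT1G72660 and 1.07 for AT1G44414. That array is 1 of the pair with a high 25S ribosomal RNA signal. Over the 1524 probe sets called higher in heat the median of the same gap was 0.18, with 66.0% of them higher in replicate 2, and over all probe sets it was 0.06 with an SD of 0.63. Without both arrays of high ribosomal signal the anoxia rises were 5.34, 3.98, 3.54 and 3.19 for AT5G53680, AT3G07150, AT1G72660 and AT1G44414, with limma adjusted p of 0.00209, 0.00484, 0.00704 and 0.00890. That fit gave the lone anoxia array the spread of the remaining groups.

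Anoxia and heat were also set directly against each other, a difference that does not use the control readings. The treatments differed in length, and the heat arrays had served in choosing the genes, so the values are a description. AT1G44414 showed the widest gap, at -6.08 (95% interval -6.89 to -5.26), and its anoxia intensity was 1.48% of that in heat. AT3G07150 followed at -5.47 (-6.10 to -4.84), or 2.26% of its heat intensity. AT1G72660 stood at -5.43 (-6.13 to -4.73), or 2.32%. AT5G53680 had the narrowest gap at -4.42 (-4.96 to -3.87), or 4.69%. No anoxia array reached a heat array for any of these genes, a state found for 22.8% of all probe sets.

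The median of anoxia minus heat was 0.20 over all 14535 probe sets, -1.82 over the 1524 called higher in heat, and -4.33 over the 49 with a heat difference of 8 or more. The 4 genes, at -6.08 to -4.42, therefore lay on the far side of the last median from 0, within a range of -8.87 to 0.70 for those 49. Counted from the most negative difference, AT1G44414 was at rank 28, AT3G07150 at 45, AT1G72660 at 49 and AT5G53680 at 129.

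**Figure D3:**
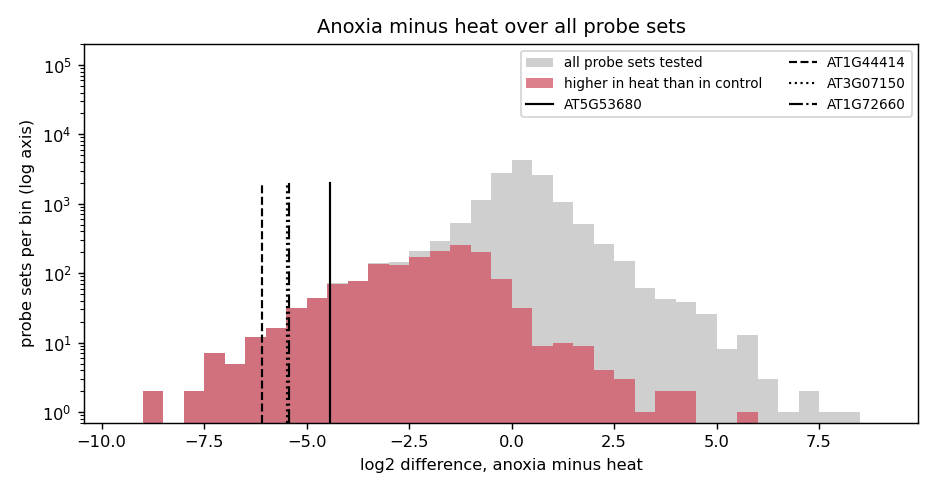
Distribution of the log2 difference anoxia minus heat, in bins of 0.5, with probe sets per bin on a log axis. Grey is all 14535 probe sets tested and red the 1524 called higher in heat than in control; vertical lines mark the 4 genes, which lie between -6.08 and -4.42, left of the red median of -1.82.

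Seedlings that went through heat and then 6 hours of anoxia were compared with seedlings taken at the end of heat. Both groups had served in choosing the genes, so the differences are a description. Whether transcripts were kept or made anew during anoxia was not tested. No group was heated and then kept in air for 6 hours. Lack of oxygen and time since heat therefore cannot be told apart in this comparison. AT1G72660 differed from heat by 0.28 (95% interval -0.42 to 0.98), AT3G07150 by -0.06 (-0.68 to 0.57), AT1G44414 by -0.29 (-1.10 to 0.53) and AT5G53680 by 0.71 (0.16 to 1.25). The interval of AT5G53680 took in 0 when 1 array was left out, at -0.02 to 1.47 without heat replicate 1, -0.06 to 1.44 without heat replicate 2 and -0.18 to 1.19, around 0.51, without heat then anoxia replicate 2. The median of this difference over all probe sets was -0.05.

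Against anoxia alone, the same combined seedlings held more of all 4 transcripts. The genes had been picked for high values in heated seedlings, AT1G72660 in these combined arrays, so these values are a description too. The differences were 5.79 (95% interval 4.98 to 6.60) for AT1G44414, 5.71 (5.01 to 6.41) for AT1G72660, 5.41 (4.78 to 6.04) for AT3G07150 and 5.12 (4.58 to 5.67) for AT5G53680. For all 4 the combined arrays lay above the anoxia arrays, as they did for 25.5% of probe sets.

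AT1G72660 has a relative of the DRG family on the array, AT4G39520, while the third, AT1G17470 (DRG1 in RefSeq), has no named probe set here. AT4G39520 read 9.28 and 9.24 in controls, 12.12 and 11.73 in heat, 9.51 and 9.12 in anoxia, and 12.32 and 12.20 in heat then anoxia. It was well above background without stress, unlike AT1G72660, and its anoxia arrays lay on either side of the controls. AT4G39520 rose by 2.67 ± 0.25 in heat (limma adjusted p = 0.000149) and by 3.0 in the combined treatment (limma adjusted p = 6.54e-05). In anoxia it stood at 0.06 ± 0.25 (limma adjusted p = 0.919). Anoxia minus heat was -2.61 for AT4G39520 (limma adjusted p = 0.000237), against -5.43 for AT1G72660. Related DRG genes can be similar in sequence, and cross-hybridisation between them was not tested.

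**Figure D4:**
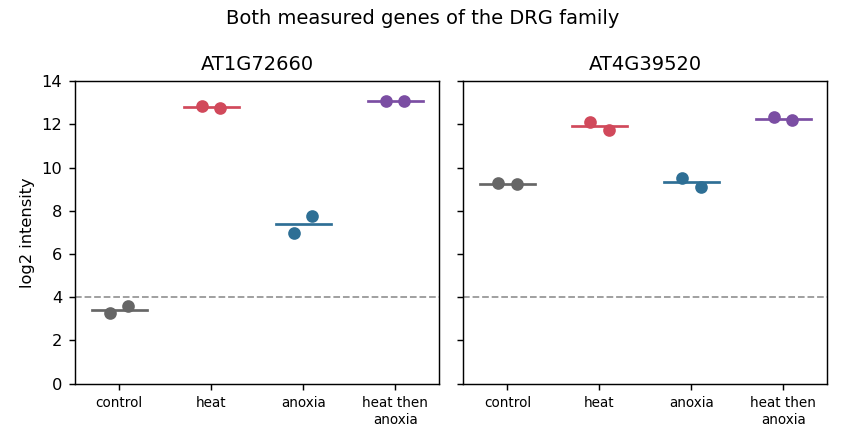
Log2 intensity of both measured DRG family genes by group. Points are the 2 arrays of a group, short lines are means, and the dashed line is log2 4; AT1G72660 starts at 3.25 and 3.60 in controls and reads 6.96 and 7.77 in anoxia, and AT4G39520 starts at 9.28 and 9.24 and reads 9.51 and 9.12 in anoxia.

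Likeness of profile was measured as the root mean square difference, in log2 units, over the 3 differences from control (heat, anoxia, heat then anoxia), which share their control arrays. The heat and combined differences also served in choosing the genes, so likeness among the 4 is a description. As deposited, AT1G72660, AT3G07150 and AT1G44414 were one another's nearest named genes, at 0.29 to 0.34. This did not hold with values below log2 4 raised to 4, an alternative chosen after the data were seen. AT1G72660 was then nearest to AT5G53680, at 0.51, and stood at 1.36 from AT3G07150 and 0.94 from AT1G44414. With that floor the nearest named gene was AT1G66510 for AT1G44414, at 0.36, AT4G02550 for AT3G07150, at 0.18, and AT2G20560 for AT5G53680, at 0.48. As deposited, the next for each of the 3 was AT4G23493, at 0.37 to 0.46, with differences from control of 9.33 in heat, 4.09 in anoxia and 9.02 in heat then anoxia. The nearest named gene to AT5G53680 was Hop3, a co-chaperone that links HSP70 to HSP90, at 0.53, with 9.52 in heat, 5.11 in anoxia and 9.77 in heat then anoxia. Hop3 was, as deposited, also among the 5 nearest of AT3G07150, at 0.50, of AT1G72660, at 0.68, and of AT1G44414, at 0.83. Apart from the 4 genes themselves, the small heat shock protein gene AT5G51440 was also among the 5 nearest of AT5G53680, at 1.05. The J-domain chaperone gene AT2G20560 was among those of AT1G44414 and AT1G72660, at 1.02 and 0.87. With the floor, Hop3 was among the 5 nearest named genes of none of the 4, and AT5G51440 was no longer among those of AT5G53680. AT2G20560 was then among those of AT5G53680 and AT1G72660, at 0.48 and 0.65, and not of AT1G44414. As deposited, of the 5 nearest probe sets with or without a name, 4 were unnamed for AT5G53680 and 2 for each of the other genes.

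Genes of the heat response other than these 4 were counted from fixed lists, of which many loci have no named probe set. In a list of heat-inducible genes outside the chaperones, 4 of 20 loci were measured. By limma, 4 of them rose in heat, where 10.5% of all probe sets did, and 4 rose in anoxia, where 3.95% did, with medians of 6.33 and 2.81 against -0.22 and -0.01 over all probe sets. In the same list 3 were lower in anoxia than in heat, where 9.46% of all probe sets were, with a median of -3.82. The count of rises in anoxia was 3 without control replicate 1 or without anoxia replicate 2. HSA32, which maintains acquired heat tolerance, rose by 3.55 in anoxia and by 7.24 in heat. AT1G66080, a homologue of the HSP70 import factor Hikeshi, rose by 2.70 and 7.99, and the temperature-induced lipocalin TIL by 2.91 and 3.58. The limma adjusted p was 0.000470 or lower for each of these rises. The 3 were named for the largest anoxia changes of the list, so their anoxia p-values are no separate support. The remaining measured gene, SGT1A, rose by 1.48 in anoxia (limma adjusted p = 0.0206) and by 5.42 in heat.

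Chaperone and hypoxia lists were counted in the same way. Of 10 measured small heat shock proteins 7 rose in heat, against 10.5% of all probe sets, 7 rose in anoxia, against 3.95%, and 7 were lower in anoxia than in heat, where 9.46% of all probe sets were, with a median of anoxia minus heat of -2.37. Of 10 larger chaperones and co-chaperones 8 rose in heat (10.5% of all probe sets) and 5 in anoxia (3.95%), and 8 were lower in anoxia than in heat (9.46%), with a median of -4.08. Of 26 measured core hypoxia genes 14 rose in anoxia, where 3.95% of all probe sets did, and the list's median difference was 1.74. That count of 14 was 9 without anoxia replicate 1, 8 without anoxia replicate 2 and 5 without both arrays of high ribosomal signal.

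The 4 genes lie on chromosomes 5, 1, 3 and 1, in the order AT5G53680, AT1G44414, AT3G07150 and AT1G72660, by the gene order of the RefSeq table for TAIR10.1. Of the 16 protein-coding genes that are their nearest or second nearest on either side, 6 have a named probe set, and 3 of those passed the filter on dim signals. The 3 that passed were AT5G53710 near AT5G53680, and AT3G07140 and AT3G07170 near AT3G07150. The measured neighbours of AT1G44414 did not pass, and no neighbour of AT1G72660 has a named probe set. The 6 measured neighbours, looked at after the data were seen, differed from control by -1.45 to 0.88 in the 3 treatments. For AT1G44414 and AT1G72660 the values therefore do not show how nearby genes behaved.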

How the data were processed

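Transcripts of whole seedlings were measured on 8 Affymetrix ATH1 arrays in 4 groups of 2 biological replicates. The deposited table gives each probe set's intensity, unlogged, made with GCRMA per the submitters' processing notes; its version is not given in the sources used here. GCRMA models background from probe sequence, so values near background depend on that model. The log2 of each intensity was taken with no further normalization. After 64 array controls were set aside, 14535 of 22746 probe sets reached log2 4 in 2 arrays or more and were fitted by group in limma 3.58.1 (R 4.3.3), with moderated variances and 4 residual degrees of freedom. Calls needed a Benjamini-Hochberg adjusted p below 0.05 over all probe sets and at least 2-fold. Intervals are 95% intervals of the moderated fit. Figures used matplotlib 3.10.9.

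Names were taken from GEO's platform annotation, updated through RefSeq; 13513 probe sets have 1 gene, 503 have several and 8730 are unnamed. A gene of a list with several probe sets was represented by its brightest. The 4 genes and all lists were chosen with earlier results of these data known. Named genes were the 4 genes, the measured DRG relatives, the 5 named probe sets nearest in profile to each, and up to 3 genes of each list with the largest anoxia change. A planned search for related proteins was not run. The fit was tested on simulated data, with 50 probe sets changed at each size in anoxia against control. It recovered 26% of changes of log2 1, 68% of log2 2, and 92% of log2 3 and of log2 4, so small changes can be missed. There were 10 false calls among the unchanged ones of the 14535 probe sets. Alternatives were no filter, a filter at log2 6, a floor at log2 4, an offset of 16, quantile normalization, median centring, a robust prior with an intensity trend, fits of only the groups compared, a replicate block, no cross-hybridising probe sets and each array left out. A further one, chosen after seeing the data, left out both arrays whose 25S ribosomal RNA control was bright.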

Additional observations from a re-analysis of the deposited data

Results flagged for a closer look

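The arrays of AT1G44414 lay on opposite sides of their references with anoxia in unheated and in heated seedlings. Both anoxia arrays lay above both controls, as in 24.4% of all probe sets, at a difference of 3.72. Both heat then anoxia arrays lay below both heat arrays, as in 33.7% of all probe sets, at a difference of -0.29. The 95% interval of that difference, -1.10 to 0.53, includes 0, so a fall after heat was not shown. The heated comparison holds both lack of oxygen and time since heat, which cannot be told apart here. Whether the 3.72 and the -0.29 differ was not tested.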

How the results depend on the processing

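The anoxia rise of each of the 4 genes stayed called under all 11 alternatives and with each array left out. Over the 11 alternatives it ran from 3.36 to 5.58 for AT5G53680 and from 2.08 to 3.86 for AT1G44414. It ran from 2.10 to 4.42 for AT3G07150 and from 2.76 to 4.08 for AT1G72660. The lowest values came with the floor or the offset of 16, which raise the control readings. With 1 array left out the rise ran from 5.34 to 5.54, 3.19 to 4.25, 3.98 to 4.56 and 3.54 to 4.35 in that order. Where every group compared kept 2 arrays, the highest limma adjusted p was 0.00753. All anoxia minus heat and heat then anoxia minus anoxia differences kept their direction. With 1 array left out, anoxia minus heat ran from -4.51 to -4.32 for AT5G53680, -6.61 to -5.55 for AT1G44414, -5.76 to -5.18 for AT3G07150 and -5.83 to -5.03 for AT1G72660. Heat then anoxia minus anoxia ran from 4.92 to 5.32, 5.26 to 6.32, 5.12 to 5.70 and 5.31 to 6.11 in the same order, and heat then anoxia minus heat from 0.51 to 0.91 for AT5G53680 and from -0.23 to 0.12 for AT3G07150. The offset of 16 gave AT3G07150 -5.17 for anoxia minus heat and 5.11 for heat then anoxia minus anoxia. Median centring gave AT5G53680 -4.62 and 5.38, and AT3G07150 5.67 for the latter. Without both arrays of high ribosomal signal, anoxia minus heat was -6.61, -5.76 and -5.83 for AT1G44414, AT3G07150 and AT1G72660, heat then anoxia minus anoxia was 6.34, 5.88 and 6.11, and heat then anoxia minus heat was 0.51 for AT5G53680.

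Anoxia calls over the whole table numbered 574 higher and 860 lower. With 1 array left out the counts ran from 358 to 575 and from 454 to 762, with 358 without anoxia replicate 2, and 502 and 454 lower without control replicates 1 and 2. They were 286 and 413 without both arrays of high ribosomal signal, and 524 were lower with only the groups compared; fewer arrays entered each of these fits. The replicate block, in which the number is only a label, gave 658 higher and 984 lower, and same-numbered deviations of different groups correlated at 0.02 to 0.30; it changed no call of the 4 genes. With 2 arrays a group and control readings below log2 4, folds against control depend on the background setting and are neither sizes nor lower bounds.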
